A study of Mus musculus with 11 samples.

Results

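The miR-29 family was followed in cardiac macrophages before and after a freezing injury of the mouse heart. Its members, mmu-miR-29a-3p, mmu-miR-29b-3p and mmu-miR-29c-3p (named below without the species prefix), were taken by name and make up 3 of the 1247 microRNAs (miRNAs) on the array. All 3 were detected on all 11 arrays. Each array was hybridised with Cy3-labelled RNA of GFP-positive heart macrophages from Cx3cr1GFP/+ mice aged 2 to 3 months, in which GFP replaces 1 copy of the fractalkine receptor gene; this allele was shared by every group, the uninjured one included. Ly6Clow/CX3CR1high cells came from hearts without surgery (day 0, 2 arrays). Ly6Chigh/CX3CR1low cells came from day 3 after cryoinjury, the study's model of myocardial infarction (3 arrays), and Ly6Clow/CX3CR1high cells from day 7 (3 arrays) and day 30 (3 arrays). The labels describe independent biological replicates and give neither the number of hearts per sample nor the sex. Ly6Chigh cells were taken at day 3 only, and no group underwent surgery without injury, so that stage, population and surgery cannot be told apart in comparisons that cross them.

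A miRNA guides the silencing complex to messenger RNAs (mRNAs) that pair with its seed, bases 2 to 8 from its 5′ end. The miR-29 family is known for targeting mRNAs of collagens, elastin and fibrillin, and in the infarcted heart its best studied role is in fibroblasts, where lower miR-29 goes with more collagen. In mice the members come from a pair of clusters: Mir29a with Mir29b-1, and Mir29b-2 with Mir29c. The array holds no mRNA probes, so the name "collagen repressors" could not be checked against collagen in these samples.

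The mature sequences are shown because the members share a seed and differ in few bases, which bears on how far probes can separate them. They are RefSeq's (GRCm38.p6), 5′ to 3′, with the seed in capitals.
miR-29a-3p: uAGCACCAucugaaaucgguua
miR-29b-3p: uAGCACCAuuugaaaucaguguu
miR-29c-3p: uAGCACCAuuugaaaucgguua
The seed AGCACCA was held by 3 mature mouse miRNAs in the RefSeq table, which are these members. Counted from 1 at the 5′ end and read from miR-29a-3p to miR-29c-3p, the only difference was C10U, with 21 of 22 bases shared. From miR-29a-3p to miR-29b-3p the differences were C10U, G18A, U21G and A22U, and miR-29b-3p is 1 base longer. How far the probes of miR-29a-3p and miR-29c-3p capture each other was not tested, and a share of one signal may come from the other.

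Mature miR-29a-3p lies at chr6:31062673-31062694 on the minus strand, and the miR-29b-3p copy of Mir29b-1 at chr6:31063025-31063047 on the same strand. The second copy of miR-29b-3p, from Mir29b-2, lies at chr1:195037091-195037113 on the plus strand, upstream of miR-29c-3p at chr1:195037600-195037621. The hairpins of each cluster are separated by 275 bases on chromosome 6 and 426 bases on chromosome 1. Because both clusters give an identical miR-29b-3p, its signal sums both sources, while miR-29a-3p comes from chromosome 6 alone and miR-29c-3p from chromosome 1 alone.

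The arrays differed in brightness by group, and this touches every level below. Each array's 75th percentile of signal, taken over the miRNAs detected throughout, lay between 55.7 and 163 scanner units on day 0 arrays, 805 and 1607 on day 3 arrays, 114 and 323 on day 7 arrays, and 1453 and 2304 on day 30 arrays, so that the brightest array was 41.4 times the dimmest. Levels below are signals divided by this percentile of their own array ("scaled signal"), and tests were made on their log2. Replicates 2 and 3 of day 30 lay closer together than scanner error allows for, with a median difference of 0.0625 on the log2 scale over 290 miRNAs, so they were counted as 1 sample, which leaves 10 samples. Myeloid markers (miR-223-3p, miR-142a-3p and miR-142a-5p) gave summed scaled signals between 3.92 and 7.17 (day 0), 14.2 and 17.9 (day 3), 2.39 and 3.58 (day 7), and 7.94 and 9.33 (day 30). miR-223-3p and miR-142a-3p were detected on all 11 arrays and miR-142a-5p on 7, none of them at day 0. miR-223-3p had the highest mean of these markers in every group, and they did not move together. At day 30 against day 3 the log2 changes were -1.19 for miR-223-3p, 0.81 for miR-142a-3p and 1.68 for miR-142a-5p, none called by limma. Of the 6 cardiomyocyte markers, miR-133a-3p and miR-133b-3p were detected on all 11 arrays and miR-1a-3p on 6, while miR-208a-3p, miR-208b-3p and miR-499-5p were detected on none. The scanner values do not tell fewer cells of a type from less of an RNA per cell.

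miR-29a-3p had the brightest signal of the family on every array. Its scaled signal was 2.68 and 1.63 at day 0, 3.74, 3.66 and 3.44 at day 3, 2.17, 1.46 and 1.79 at day 7, and 4.64, 4.80 and 4.63 at day 30. Every day 3 and day 30 array lay above every day 0 and day 7 array, and day 30 lay above day 3. On the log2 scale the means were 1.06 ± 0.51 at day 0 (n = 2), 1.85 ± 0.06 at day 3 (n = 3), 0.84 ± 0.29 at day 7 (n = 3) and 2.23 ± 0.02 at day 30 (SD, n = 2). Day 0 and day 7, the lowest neighbours in this order, overlapped.

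miR-29b-3p, the member made from both clusters, had the widest range over the groups. Its scaled signal was 0.230 and 0.102 at day 0, 0.394, 0.258 and 0.600 at day 3, 0.217, 0.0646 and 0.116 at day 7, and 2.13, 1.53 and 1.58 at day 30. All 3 day 30 arrays lay above all others, day 3 lay next and just above day 0, and day 0 and day 7 overlapped. On the log2 scale the means were -2.71 ± 0.83 at day 0 (n = 2), -1.35 ± 0.61 at day 3 (n = 3), -3.09 ± 0.87 at day 7 (n = 3) and 0.86 ± 0.32 at day 30 (SD, n = 2).

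miR-29c-3p, which differs from miR-29a-3p by 1 base, stood apart at day 30 only. Its scaled signal was 0.333 and 0.182 at day 0, 0.244, 0.130 and 0.208 at day 3, 0.211, 0.0946 and 0.154 at day 7, and 1.07, 1.08 and 1.10 at day 30. The day 0, day 3 and day 7 arrays overlapped one another. On the log2 scale the means were -2.02 ± 0.62 at day 0 (n = 2), -2.42 ± 0.47 at day 3 (n = 3), -2.78 ± 0.58 at day 7 (n = 3) and 0.11 ± 0.01 at day 30 (SD, n = 2). In limma's F test across the 4 groups, the Benjamini-Hochberg adjusted p over 369 tested miRNAs was 0.0226 for miR-29a-3p, 0.000773 for miR-29b-3p and 0.00177 for miR-29c-3p. All 3 members passed 0.05, as did 78.9% of all tested miRNAs, so passing was the usual case on these arrays. Background readings are part of that share. Scaled signals were raised to a floor of 0.00271, while the lowest detected at day 0 were 0.0101 and 0.0288. Undetected readings there can therefore lie above the floor. miR-126a-5p, undetected on every day 0 array, passed (adjusted p = 0.0130) and was called lower at day 3 and day 30 than at day 0. Shares and medians below for comparisons with day 0 or day 7 can include such miRNAs, which were not counted. For miR-29a-3p the F test did not pass once array brightness was a covariate (adjusted p = 0.257), nor without day 3 replicate 1 or 2, day 7 replicate 3 or day 30 replicate 1 (0.0544 to 0.0990).

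**Figure D1:**
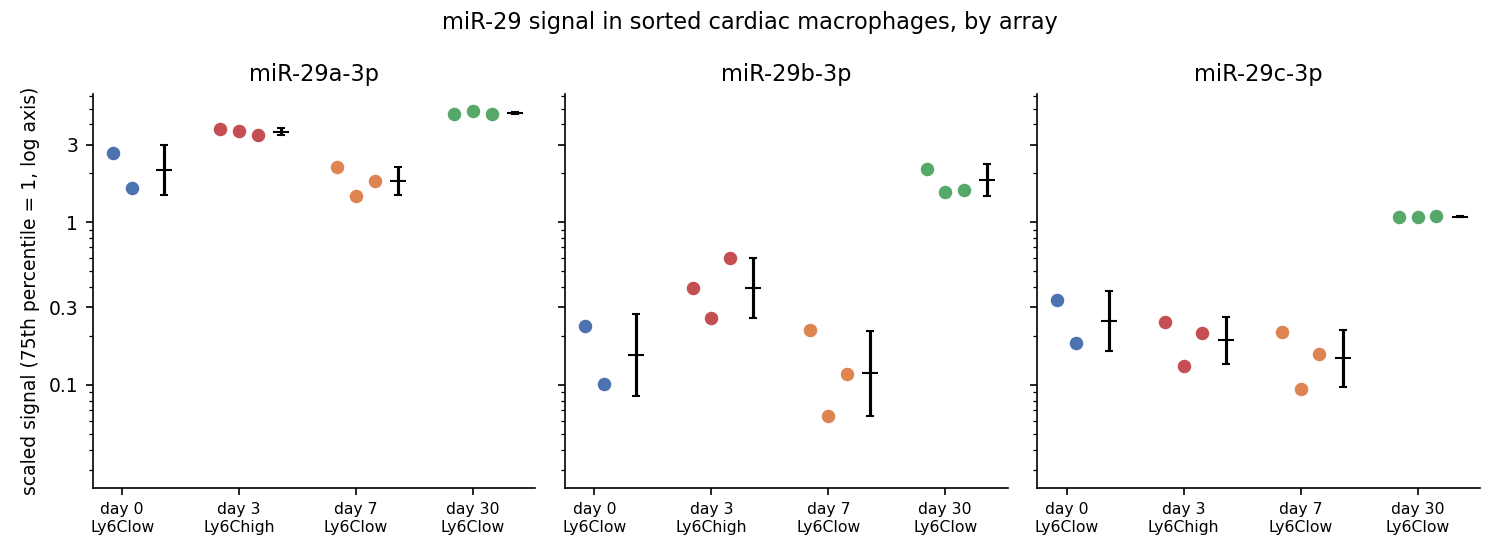
Scaled signal (log axis) of miR-29a-3p, miR-29b-3p and miR-29c-3p on each of the 11 arrays by group. The black marks are the geometric mean over samples with the SD of the log2 values. Of the 3 members, miR-29c-3p was the only one whose day 3 arrays (0.130 to 0.244) overlapped those of day 0 and day 7, while all 3 members were highest at day 30.

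Day 30 Ly6Clow macrophages were set against day 3 Ly6Chigh macrophages, a late scar-stage population against the early inflammatory one. miR-29b-3p and miR-29c-3p were higher at day 30, and miR-29a-3p did not pass. The change of miR-29b-3p was 2.21 ± 0.59 on the log2 scale (SE), a 4.62-fold higher scaled signal (limma, adjusted p = 0.0143). That of miR-29c-3p was 2.53 ± 0.49, or 5.78-fold (adjusted p = 0.00254). The change of miR-29a-3p was 0.37 ± 0.41, with a 95% interval of -0.52 to 1.27 (adjusted p = 0.522). Thus 2 of 3 members were called higher, against 9.76% of all tested miRNAs. The groups did not overlap for any of the 3, nor for 74.5% of all tested miRNAs. The median change of all tested miRNAs was -0.41. The scaling itself sets where 0 lies: for miRNAs detected on every array, the median change was -0.49 with it and 0.34 without, and against day 0 and day 7 the medians at day 30 were -1.06 and -0.57 with it and 3.26 and 2.61 without.

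Both calls were made between the 2 bright groups, and both were kept with array brightness as a covariate: 1.43 for miR-29b-3p (limma, adjusted p = 0.00842) and 2.05 for miR-29c-3p (adjusted p = 0.00197). A pair of arrays of near-equal brightness, day 30 replicate 2 with a 75th percentile of 1453 scanner units and day 3 replicate 3 with 1607, showed the same order without any scaling. There miR-29b-3p read 2220 scanner units at day 30, against 964 at day 3, and miR-29c-3p read 1574 at day 30, against 334 at day 3. Day 30 replicate 3, about as near in brightness (1754), read 2777 for miR-29b-3p and 1925 for miR-29c-3p. These are single arrays, so the reading is a description only. Within the slides, the 2 glass carriers of the arrays, the differences were 2.13 and 2.59 for miR-29b-3p and 2.25 and 3.07 for miR-29c-3p. The call of miR-29b-3p was lost without day 3 replicate 2 (adjusted p = 0.0636) and without day 30 replicate 1 (adjusted p = 0.141), and under quantile normalization (0.0740), no scaling (0.0637), the highest floor (0.0706) and a percentile over all miRNAs (0.105). The call of miR-29c-3p held without each replicate in turn, with a highest adjusted p of 0.0392.

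Against day 0, all 3 members were higher at day 30, where 8.94% of all tested miRNAs were. The changes were 1.16 ± 0.45 for miR-29a-3p (SE, limma, adjusted p = 0.0434), 3.57 ± 0.64 for miR-29b-3p (adjusted p = 0.00164) and 2.14 ± 0.54 for miR-29c-3p (adjusted p = 0.00685). As scaled signals, miR-29b-3p was 11.9-fold and miR-29c-3p 4.40-fold higher at day 30. The groups did not overlap for any member, nor for 78.3% of all tested miRNAs. miR-29b-3p had the fourth highest change of the 369, while the median of all tested miRNAs was -1.37. That median takes in miRNAs undetected at day 0, whose background readings can lie above the floor. None of the 3 changes passed once array brightness was a covariate, where they were -0.11, -0.49 and -0.38 for miR-29a-3p, miR-29b-3p and miR-29c-3p. The call of miR-29a-3p was also lost in 7 of the 11 fits that left out 1 replicate, among them those without day 0 replicate 2 (adjusted p = 0.151) and without day 30 replicate 1 (0.161). It was lost with no filter on detection (0.0734), with only the groups compared (0.224) and with array quality weights (0.0930), and cyclic loess turned it to -0.14. The day 0 arrays were among the dimmest and the day 30 arrays among the brightest, so brightness and group can barely be told apart in this pair.

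Against day 7, the other dim group, all 3 members were again higher at day 30, where 13.6% of all tested miRNAs were. The change was 3.95 ± 0.59 for miR-29b-3p (SE, limma, adjusted p = 0.00037), a 15.5-fold higher signal, and 2.89 ± 0.49 for miR-29c-3p (adjusted p = 0.000856), a 7.43-fold higher one. miR-29a-3p was 1.39 ± 0.41 higher (adjusted p = 0.0147), a call lost without day 30 replicate 1 (adjusted p = 0.108), with cyclic loess (0.75, adjusted p = 0.253) and with no filter on detection (0.0722). No member's groups overlapped, nor did those of 71.3% of all tested miRNAs. Fitted with brightness as a covariate, the changes were 0.97, 1.05 and 0.45, in that order of members, and none passed (adjusted p = 0.346, 0.346 and 0.624).

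At day 7, set against day 3, miR-29a-3p and miR-29b-3p were lower. The changes were -1.02 ± 0.37 for miR-29a-3p (SE, limma, adjusted p = 0.0459) and -1.74 ± 0.52 for miR-29b-3p (adjusted p = 0.0208), while miR-29c-3p differed by -0.36 ± 0.44 (adjusted p = 0.490). These 2 of 3 members compare with 16.0% of all tested miRNAs called lower. The groups did not overlap for the same 2 members, nor for 64.2% of all tested miRNAs. Once brightness was a covariate neither passed, and miR-29b-3p turned to 0.45. Each day 3 array left out in turn also ended the call of miR-29a-3p (adjusted p = 0.120 to 0.126), as did day 7 replicate 2 or 3 (0.118 and 0.119) and day 30 replicate 1 (0.0898). The call of miR-29b-3p ended without day 3 replicate 1 or 3 (0.0561 and 0.109) and without day 7 replicate 2 or 3 (0.0833 and 0.0640).

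At day 3, set against day 0, none of the 3 members was called by limma, while 55.3% of all tested miRNAs were called in either direction. miR-29b-3p, with a change of 1.36 ± 0.59 (SE), passed at an unadjusted p under 0.05 only (adjusted p = 0.0627). miR-29a-3p differed by 0.79 ± 0.41 (adjusted p = 0.121) and miR-29c-3p by -0.39 ± 0.49, with a 95% interval of -1.46 to 0.67 (adjusted p = 0.526). The groups did not overlap for miR-29a-3p and miR-29b-3p, nor for 65.6% of all tested miRNAs. Fitted with brightness as a covariate, miR-29c-3p was lower at day 3 (-2.42, adjusted p = 0.0474), and miR-29b-3p read -1.92 (adjusted p = 0.0766). The direction of miR-29b-3p in this pair therefore turned with the treatment of brightness. Without day 0 replicate 1, miR-29a-3p (1.15, adjusted p = 0.0269) and miR-29b-3p (1.95, adjusted p = 0.0214) were called higher, and miR-29b-3p was also called without day 7 replicate 1 or 2 (adjusted p = 0.0420 and 0.0421).

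At day 7, set against day 0, none of the 3 members was called by limma and none had an unadjusted p under 0.05, while 3.79% of all tested miRNAs were called. The differences were -0.23 for miR-29a-3p, -0.38 for miR-29b-3p and -0.76 for miR-29c-3p (adjusted p = 0.718, 0.693 and 0.288). The groups overlapped for all 3 members, where 19.5% of all tested miRNAs had no overlap. Both are dim Ly6Clow groups. In the fit with brightness as a covariate, miR-29b-3p (-1.46, adjusted p = 0.0246) and miR-29c-3p (-1.43, adjusted p = 0.0327) were lower at day 7.

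Day 3 was also set against the mean of the 3 Ly6Clow groups. None of the 3 members was called by limma, and 37.1% of all tested miRNAs were. miR-29a-3p differed by 0.48 (adjusted p = 0.226), miR-29b-3p by 0.30 (adjusted p = 0.595) and miR-29c-3p by -0.85 (adjusted p = 0.0906), and of these only miR-29c-3p had an unadjusted p under 0.05. When brightness was a covariate, miR-29b-3p (-1.27, adjusted p = 0.0295) and miR-29c-3p (-1.82, adjusted p = 0.00802) were lower at day 3. miR-29c-3p was called lower as well when replicate 2 of day 0 was left out (adjusted p = 0.0320), and when replicate 2 of day 7 was (0.0487).

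**Figure D2:**
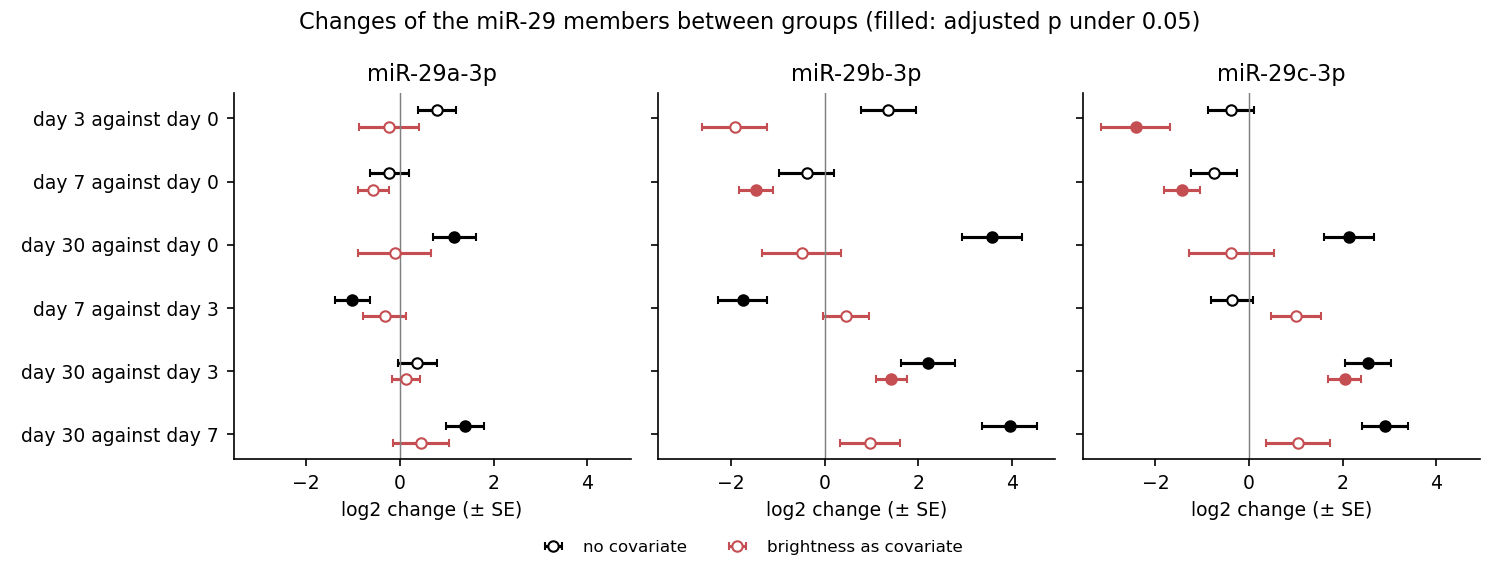
Log2 change (± SE) of each member in the 6 comparisons of 2 groups, later group over earlier group, in black without a covariate and in red with array brightness as a covariate, filled where the adjusted p is under 0.05. Of the changes at day 30, those of miR-29b-3p and miR-29c-3p against day 3 are filled in both colours, while those against day 0 and day 7 are filled in black only.

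The balance within the family was read as the ratio of signals on 1 array, which needs no scaling between arrays. Probes differ in brightness per molecule, so a ratio is no ratio of molecules, and its movement between arrays is what was compared. The signal of miR-29c-3p as a percent of that of miR-29a-3p was 12.4 and 11.2 at day 0, 6.53, 3.54 and 6.04 at day 3, 9.72, 6.49 and 8.62 at day 7, and 23.2, 22.6 and 23.7 at day 30. Day 30 lay above all other arrays, and day 3 lay below day 0. The geometric means were 11.8% at day 0, 5.19% at day 3, 8.16% at day 7 and 23.1% at day 30. An exact permutation test over all 25200 arrangements of the 10 samples gave p = 0.00111, or 0.00333 after Benjamini-Hochberg adjustment over the 3 ratios. Replicate 2, on slide 2 in every group, had the lowest ratio of its group each time. Day 30 replicate 3, on slide 2 as well, had the highest of its group (23.7%). With slide as a block the adjusted exact permutation p was 0.00556. With replicate number as a block it was 0.0521, which does not pass.

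The signal of miR-29b-3p as a percent of that of miR-29a-3p was 8.59 and 6.23 at day 0, 10.5, 7.05 and 17.5 at day 3, 9.98, 4.43 and 6.47 at day 7, and 45.9, 31.8 and 34.2 at day 30. The first 3 groups overlapped one another and day 30 lay above them all. Geometric means were 7.31%, 10.9%, 6.59% and 38.9% at day 0, day 3, day 7 and day 30 (exact permutation p = 0.0237, adjusted p = 0.0237). This call was lost without day 3 replicate 1 (0.0556) or 3 (0.0548) or day 30 replicate 1 (0.0738), and with replicate number as a block (0.0556). At day 30 the ratio was 3.57 times that at day 3 and 5.32 times that at day 0.

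The signal of miR-29c-3p as a percent of that of miR-29b-3p was highest in the 2 dim groups: 144.6 and 179 at day 0 and 97.4, 146.5 and 133.3 at day 7. It was 62.0, 50.3 and 34.6 at day 3 and 50.5, 70.9 and 69.3 at day 30, and these 2 groups overlapped. The exact permutation test across the groups gave p = 0.00651 (adjusted p = 0.00976). This call was lost with brightness as a covariate (adjusted p = 0.0676) and with replicate number as a block (adjusted p = 0.0521).

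Groups of 2 or 3 samples cannot reach an exact p under 0.05 in any pair: with 3 samples against 3 the smallest is 0.1. For day 3 against all 7 Ly6Clow samples, with 120 splits, the mean log2 ratio of miR-29c-3p to miR-29a-3p differed by -1.23 (day 3 minus Ly6Clow; exact permutation p = 0.0333, adjusted over the 3 ratios 0.05, which does not pass). That of miR-29c-3p to miR-29b-3p differed by -1.19 (exact permutation p = 0.0333, adjusted 0.05). The ratio of miR-29b-3p to miR-29a-3p differed by -0.05 (exact permutation p = 0.967).

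**Figure D3:**
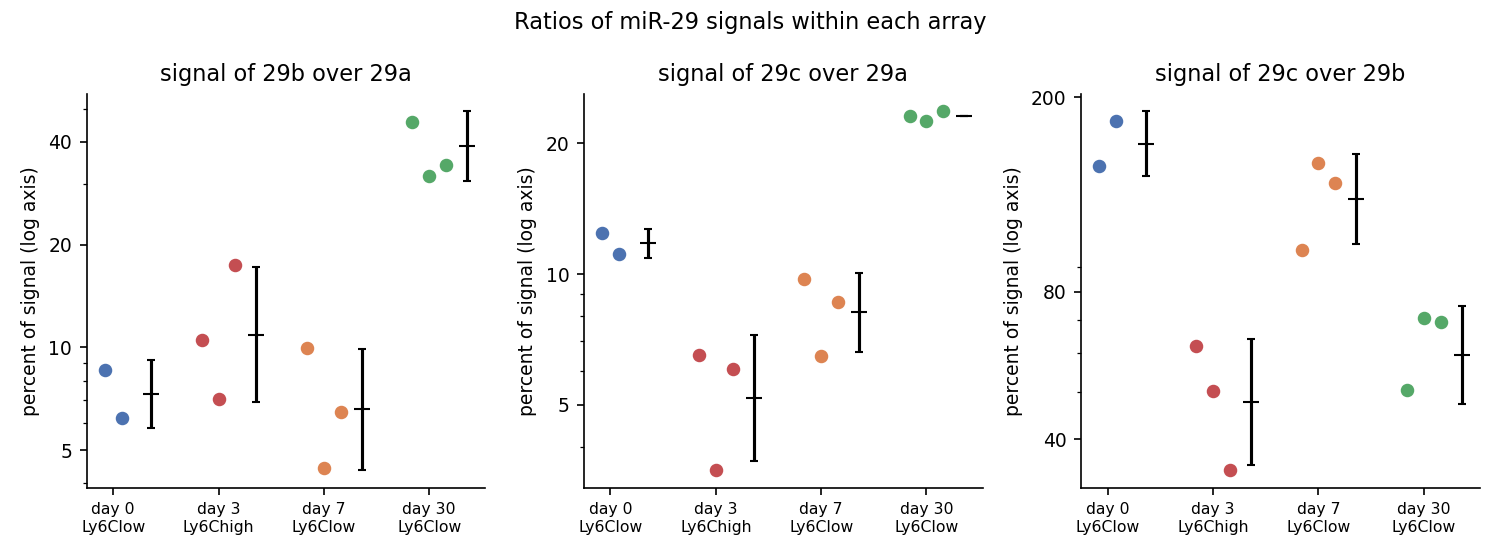
Ratio of the signals of 2 members on the same array, in percent on a log axis, by group. The black marks are the geometric mean over samples with the SD of the log2 ratios. The ratio of miR-29c-3p to miR-29a-3p lies at 22.6 to 23.7% at day 30 and at 3.54 to 6.53% at day 3.

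These ratios moved with brightness inside the groups too. Per doubling of array brightness within a group, the log2 ratio of miR-29b-3p to miR-29a-3p was 0.64 higher and that of miR-29c-3p to miR-29a-3p 0.29 higher, and in every group the brightest array had the highest ratio of miR-29b-3p to miR-29a-3p. With this slope taken out, the mean log2 ratio of miR-29c-3p to miR-29a-3p was -2.44 at day 0, -4.62 at day 3, -3.30 at day 7 and -2.70 at day 30 (permutation, adjusted p = 0.000476). For miR-29b-3p to miR-29a-3p these means were -2.32, -3.99, -3.21 and -2.69 in the same order (adjusted p = 0.00143). The log2 ratio of miR-29c-3p to miR-29b-3p had a slope of -0.36 per doubling, and its adjusted means of -0.12, -0.63, -0.09 and -0.01 did not pass (adjusted p = 0.0676). The first 2 ratios were then lowest at day 3, and day 30 no longer lay above day 0. The slope was fitted once within the actual groups and not refitted for each arrangement. The p values with the slope taken out are therefore not exact and may be too small, so no call is drawn from them. On the pair of arrays of near-equal brightness named above, the ratio of miR-29c-3p to miR-29a-3p was 22.6% at day 30, against 6.04% at day 3.

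**Figure D4:**
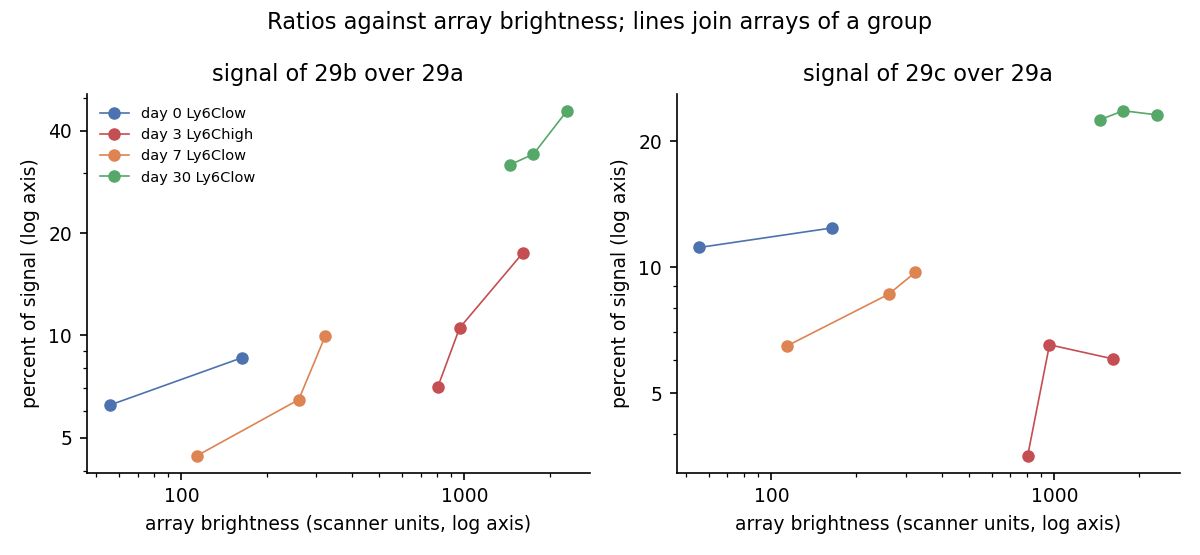
Within-array ratio of miR-29b-3p and of miR-29c-3p to miR-29a-3p (percent, log axis) against array brightness (75th percentile of signal, scanner units, log axis), 1 point per array, with lines joining the arrays of a group. Day 3 and day 30 arrays lie at 805 to 2304 scanner units, and at that brightness the day 30 arrays have higher ratios.

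The 5p arms, the opposite strands of the same hairpins, can each be traced to 1 cluster, where miR-29b-3p cannot. Whether their levels follow the output of the cluster was not tested. Their sequences are shown, with bases 2 to 8 in capitals, because they have different seeds from the 3p arms and from each other.
miR-29b-1-5p: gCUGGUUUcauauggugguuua
miR-29c-5p: uGACCGAUuucuccugguguuc
miR-29b-1-5p comes from the chromosome 6 cluster (chr6:31063067-31063088, minus strand) and miR-29c-5p from the chromosome 1 cluster (chr1:195037562-195037583, plus strand). The other arms were near background: miR-29a-5p was detected on 1 of 11 arrays and miR-29b-2-5p on 0 of 11.

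miR-29b-1-5p and miR-29c-5p moved in opposite directions between day 30 and day 3. Unscaled, miR-29b-1-5p read 8.33, 5.06 and 6.84 scanner units at day 30, against 21.9, 16.0 and 33.9 at day 3, on day 30 arrays of like or higher brightness. The groups did not overlap. On scaled values the change was -2.54 ± 0.49 on the log2 scale (SE, limma, adjusted p = 0.00247), a 5.81-fold lower signal at day 30. With brightness as a covariate it was -2.14 (adjusted p = 0.00245). miR-29a-3p, from the same cluster, differed by 0.37 in this pair and did not pass (limma, adjusted p = 0.522).

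miR-29c-5p read 37.0, 24.5 and 29.6 scanner units at day 30. At day 3 it was detected on replicate 1 alone, at 5.59 units. The change was 2.24 ± 0.59 (SE, limma, adjusted p = 0.0139), and 2.92 with brightness as a covariate (adjusted p = 0.000859). It was lost without day 3 replicate 2 (adjusted p = 0.0587) or without day 30 replicate 1 (adjusted p = 0.105). Because 2 of 3 day 3 arrays were below detection, this fold depends on the floor set under low signals, and both arms read 0 change under the highest floor tried, which lies above their signals.

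At day 7, miR-29b-1-5p was detected on 2 of 3 arrays, at 1.56 and 2.05 scanner units, and it was lower than at day 3, with a change of -1.67 (SE 0.43, limma, adjusted p = 0.0105). miR-29c-5p was detected on no array of day 7 and no array of day 0. At day 0 miR-29b-1-5p was not detected either. Day 3 exceeded the day 0 limit of miR-29b-1-5p by at least 1.24-fold, and at day 30 miR-29c-5p exceeded its day 7 limit by at least 2.39-fold. These bounds themselves were not tested. In limma, which takes in the background readings of undetected arrays, the change of miR-29b-1-5p was 0.99 (adjusted p = 0.0993). That of miR-29c-5p was 1.43 (adjusted p = 0.0622), and neither passed. The miR-29c-5p difference passed in 14 of 27 alternatives, all higher at day 30, among them no scaling (3.92, adjusted p = 0.00019), the authors' deposited table (1.90, 0.00461), brightness as a covariate (4.02, 0.0350) and leaving out a day 0 array or day 7 replicate 2 (0.0251 to 0.0278). Against day 0, whose arrays were too dim for the day 30 level of miR-29c-5p to exceed their limit, no fold is given.

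**Figure D5:**
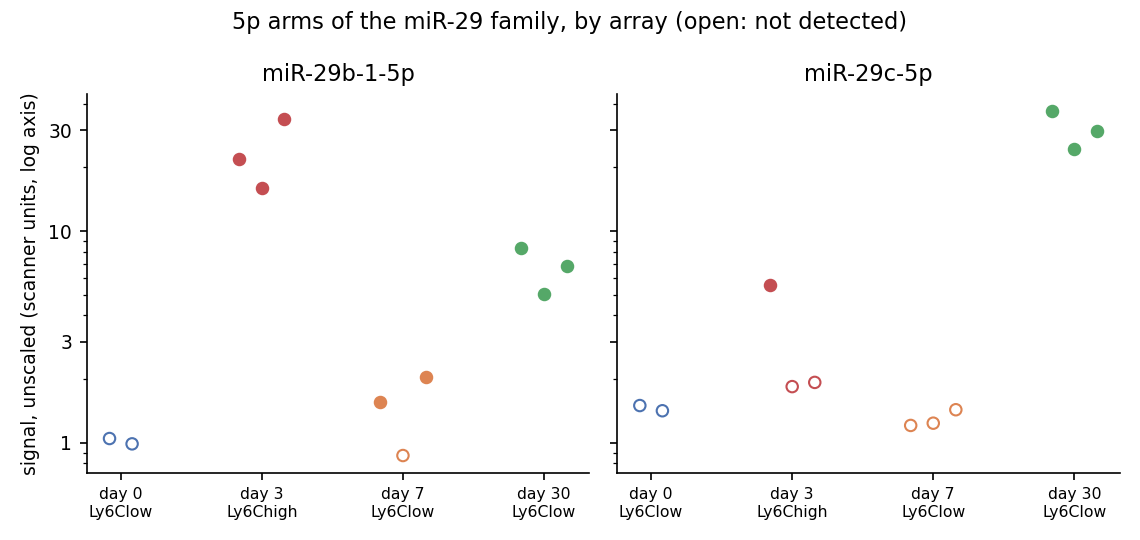
Unscaled signal (scanner units, log axis) of miR-29b-1-5p and miR-29c-5p on each array by group, open where the scanner software did not call the miRNA detected. miR-29b-1-5p is higher at day 3 (16.0 to 33.9 units) than at day 30 (5.06 to 8.33), and miR-29c-5p is detected at day 30 on all 3 arrays (24.5 to 37.0).

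Other miRNAs reported to act on cardiac fibrosis give the setting. Of 15 reported repressors, all tested, 3 were higher and 0 lower at day 30 than at day 3, against 9.76% higher and 21.1% lower among all tested miRNAs. Their median change was 0.76, beside -0.41 over all tested miRNAs. Over 28 alternatives the count higher ran from 1, among miRNAs detected on all arrays, to 11, with array quality weights, and 1 was lower in 9 of them. The 3 called were miR-101a-3p (4.37, adjusted p = 0.00187), miR-30a-5p (3.24, adjusted p = 0.000298), which is known for targeting connective tissue growth factor, and miR-101b-3p (2.35, adjusted p = 0.0241). Of the 9 reported promoters tested, 4 were higher and 1 lower, with a median of 1.16. The count higher was 2 without day 3 replicate 2 or 3 and 1 without day 30 replicate 1. The higher ones included miR-199b-5p (2.99, adjusted p = 0.00136), miR-125b-5p (2.32, adjusted p = 0.00217) and miR-34a-5p (2.02, adjusted p = 0.0164), and the lower one was miR-132-3p (-3.57, adjusted p = 0.000298). The call of miR-101b-3p was lost in 5 alternatives and that of miR-34a-5p in 6, among them both without day 30 replicate 1 (adjusted p = 0.181 and 0.105), where that of miR-125b-5p was lost too (0.0524). miR-132-3p was detected on 2 of 3 day 30 arrays, and its call was lost under the highest floor (-0.25, adjusted p = 0.374). Over the 28 alternatives the promoter counts ran from 1 to 6 higher and from 0 to 3 lower. All of these are limma tests.

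Against day 7, 11 repressors were higher and 2 lower at day 30, with a median of 2.41, and of the promoters 2 were higher and 2 lower, beside 13.6% higher and 34.1% lower among all tested miRNAs. Against day 0, the counts at day 30 were 6 higher and 2 lower for repressors and 4 higher and 2 lower for promoters, beside 8.94% higher and 47.4% lower among all tested miRNAs. Of the promoters, 1 of those 2 lower ones was undetected on every day 0 array. The shares called lower than day 0 among all tested miRNAs include such miRNAs as well, and their number was not counted. An example is miR-126a-5p, with -2.36 at day 30 (limma, adjusted p = 0.00762) and -2.11 at day 3 (adjusted p = 0.00885). Between day 3 and day 0 the repressors were split, 4 higher and 4 lower, where 16.3% of all tested miRNAs were higher and 39.0% lower at day 3. Each of these pairs sets a bright group against a dim one. The list counts in them were not repeated with brightness as a covariate.

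Of the 6 markers of fibroblasts and smooth muscle, the cells in which miR-29 is best known in the heart, 5 were tested. At day 30 against day 3, 2 of these were higher and 0 lower (limma), where 9.76% of all tested miRNAs were higher and 21.1% lower. The 2 were miR-199a-3p (1.18, adjusted p = 0.0459) and miR-199b-5p (2.99, adjusted p = 0.00136). miR-143-3p (1.05), miR-199a-5p (1.04) and miR-214-3p (-0.30) were not called. The summed scaled signal of the 6 was 0.341 to 0.349 at day 30, against 0.101 to 0.135 at day 3. The sum at day 7 was 0.198 to 0.470, overlapping day 30. The sum was 0.137 to 0.152 at day 0, where 4 of the 6 markers were undetected and their background readings are part of it. miR-145a-5p, a defining marker, was detected on no array. The part of such cells in the miR-29 differences was not tested.

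The 3 erythroid markers summed to 0.0842 to 0.109 at day 30, against 0.0334 to 0.0616 at day 3, and miR-144-3p was detected on no array. The cardiomyocyte sum was 0.0566 to 0.0798 at day 30, against 0.0249 to 0.0441 at day 3, and was highest at day 0 with 0.137 to 0.264. At day 0, 4 of its 6 markers were undetected, and their background readings are part of the sum. The endothelial sum was 0.250 to 0.266 at day 30, against 0.309 to 0.402 at day 3, and lymphocyte miR-150-5p was 0.00455 to 0.00647 at day 30, against 0.0145 to 0.0384 at day 3. The part of these cells in the miR-29 differences was not tested.

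Over the 10 samples, the scaled log2 signals of the members went together to different degrees. Pearson's r was 0.925 between miR-29a-3p and miR-29b-3p, 0.885 between miR-29b-3p and miR-29c-3p, and 0.724 between miR-29a-3p and miR-29c-3p, with Spearman's rho of 0.952, 0.733 and 0.733. All points share their array's scaling and brightness, and r with the log2 of brightness was 0.910 for miR-29a-3p, 0.886 for miR-29b-3p and 0.598 for miR-29c-3p, so these are descriptions.

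Among 123 other miRNAs detected on all arrays, those whose pattern was most like miR-29a-3p were miR-15a-5p (r = 0.971), miR-26b-5p (0.965), miR-19b-3p (0.963), miR-142a-3p (0.961) and miR-27a-3p (0.957). The same 5 names came up for miR-29b-3p, led by miR-19b-3p (0.954) and miR-15a-5p (0.933). For miR-29c-3p they were 5 other miRNAs, led by miR-26a-5p (0.896) and followed by miR-23a-3p (0.834), miR-30b-5p (0.832), miR-350-3p (0.823) and miR-322-5p (0.819).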

How the data were processed

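Members, gene lists and tests were chosen with earlier results of these data known. Total RNA (100 ng per sample) was labelled, per the labels' protocols, and images were read with Agilent Feature Extraction, per the submitters' processing notes (version not given in the sources used here). Per the file headers, the 11 deposited scanner files hold a total gene signal (intensity, linear scanner units), its error and a detection flag. The authors' table holds log2 values of 317 miRNAs that the authors had quantile normalized, and served as an alternative. Each intensity was divided by its array's 75th percentile (miRNAs detected on every array), raised to a floor of 0.00271 and logged. The 369 miRNAs detected on at least 2 arrays were tested in limma 3.58.1 (R 4.3.3), all groups in 1 fit with 6 residual degrees of freedom, Benjamini-Hochberg within each comparison, called at 0.05. Ratios had exact permutation tests in Python 3.11.15 (SciPy 1.17.1, NumPy 2.4.6). Those with brightness taken out were permuted without refitting the slope and are not exact. Named miRNAs were the members, their 5p arms, the 5 most correlated miRNAs per member, and up to 3 called list members per direction. Bounds set an undetected group at the lowest detected scaled signal of each of its arrays. The fit was tested on simulated data. All 7 family names matched RefSeq's sequence table, and its positions are for GRCm38.p6. The number of arrays limits precision.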

Additional observations from a re-analysis of the deposited data

How the results depend on the processing

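The change of miR-29c-3p between day 30 and day 3 stayed called under all 28 alternatives and that of miR-29b-3p under 22 of 28, all in 1 direction. The dimness of the day 0 and day 7 arrays limits every comparison with them. The groups were too small for an exact test of pairs, and the fit with array quality weights stopped short of its convergence tolerance. The cause of the shifts below was not tested.

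Across the groups, miR-29a-3p had adjusted p values of 0.189 with cyclic loess, 0.0521 with no filter on detection and 0.257 with brightness as a covariate, and 0.00365 to 0.0990 without each replicate in turn. Without a replicate the range was 0.000234 to 0.00881 for miR-29b-3p and 0.000457 to 0.0218 for miR-29c-3p.

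Members called at day 3 versus day 0 numbered 2 with the 75th percentile over all miRNAs or scaling to the median, 3 with no scaling or scaling to the dmr controls (the array's spots for labelling controls), and 1 with no filter, 11 separate arrays, the slide block or brightness. At day 7 versus day 0 there were 2 with brightness. At day 30 versus day 0, and at day 30 versus day 7, there were 0 with brightness, and 2 with cyclic loess or no filter, which lost miR-29a-3p; at day 30 versus day 0 there were also 2 with only the groups compared or quality weights. At day 7 versus day 3 there was 1 with the 75th percentile over all miRNAs, scaling to the median, quantile normalization, the highest floor or no filter, and 0 with cyclic loess or brightness. At day 30 versus day 3 there was 1 with the 75th percentile over all miRNAs, quantile normalization, no scaling or the highest floor. At day 3 versus the Ly6Clow mean there was 1 with no scaling, the dmr controls, the slide block or quality weights, and 2 with brightness. Without each replicate in turn, these counts ran from 0 to 2 for day 3 versus day 0, stayed at 0 for day 7 versus day 0, and ran from 2 to 3 for day 30 versus day 0, 0 to 2 for day 7 versus day 3, 1 to 2 for day 30 versus day 3, 2 to 3 for day 30 versus day 7 and 0 to 1 for day 3 versus the Ly6Clow mean.

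With brightness as a covariate the ratio of miR-29c-3p to miR-29b-3p had an adjusted permutation p of 0.0676, with the slope not refitted for each arrangement. From the authors' table the ratio of miR-29c-3p to miR-29a-3p had an adjusted exact permutation p of 0.0929. Without each replicate in turn the adjusted exact permutation p was 0.0183 to 0.0738 for miR-29b-3p to miR-29a-3p (over 0.05 when replicate 1 or 3 of day 3, or replicate 1 of day 30, was left out), 0.00333 to 0.0183 for miR-29c-3p to miR-29a-3p and 0.00952 to 0.0292 for miR-29c-3p to miR-29b-3p.

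The labels give the groups the same replicate numbers. Deviations of same-numbered samples correlated at -0.18 to 0.50 (median 0.12), over 0.1 in 7 of 13 pairs. Those of differently numbered samples correlated at -0.50 to 0.44 (median -0.10), over 0.1 in 5 of 24 pairs. Whether the numbers pair the samples was not tested, and the main tests treat the samples as unpaired. With the number as a replicate block the ratio tests had adjusted exact permutation p values of 0.0556 (miR-29b-3p to miR-29a-3p), 0.0521 (miR-29c-3p to miR-29a-3p) and 0.0521 (miR-29c-3p to miR-29b-3p).

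Changes that turned sign were these. With the 75th percentile over all miRNAs, day 7 versus day 0 read 1.09, 0.94 and 0.57 for miR-29a-3p, miR-29b-3p and miR-29c-3p, and miR-29c-3p read 2.15 for day 3 versus day 0 and 0.26 for day 3 versus the Ly6Clow mean. With no scaling these 5 values were 0.92, 0.77, 0.39, 3.10 and 0.81, and with the dmr controls 0.95, 0.80, 0.42, 2.59 and 0.43. With scaling to the median, day 7 versus day 0 read 0.28 for miR-29a-3p and 0.13 for miR-29b-3p, and day 3 versus day 0 read 0.13 for miR-29c-3p. With cyclic loess, miR-29a-3p read -0.14 for day 30 versus day 0 and -0.40 for day 30 versus day 3. With brightness, miR-29a-3p read -0.24 for day 3 versus day 0, -0.11 for day 30 versus day 0 and -0.015 for day 3 versus the Ly6Clow mean. miR-29b-3p then read -1.92, -0.49 and -1.27 in these comparisons and 0.45 for day 7 versus day 3, and miR-29c-3p read -0.38 for day 30 versus day 0 and 0.997 for day 7 versus day 3. miR-29b-1-5p, not called at day 30 versus day 7 (-0.87), was called in opposite directions: higher with the 75th percentile over all miRNAs (0.53, adjusted p = 0.0234), no scaling (1.75, 0.00208) and the dmr controls (1.72, 0.00105), and lower with quality weights (-1.08, 0.000146) or without either day 0 array (0.0471). It read 0.85 with cyclic loess, 0.67 with brightness and 0.31 from the authors' table. Without each replicate in turn, day 7 versus day 0 ran from -0.59 to 0.13 for miR-29a-3p and from -0.97 to 0.21 for miR-29b-3p, miR-29c-3p ran from -0.83 to 0.043 for day 3 versus day 0, and miR-29b-3p ran from -0.0043 to 0.60 for day 3 versus the Ly6Clow mean. These turned positive without day 0 replicate 1, or also, for miR-29b-3p at day 7, without day 7 replicate 2, and the last turned negative without day 3 replicate 3.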

Other observations

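In the authors' deposited table, whose log2 values were quantile normalized over arrays, miR-29c-3p stood at 10.12, 9.88 and 9.88 on the day 30 arrays, against 7.75, 6.95 and 7.55 on the day 3 arrays. miR-29b-3p stood at 10.83, 10.34 and 10.47 at day 30, against 8.40, 7.81 and 9.17 at day 3. miR-29a-3p had the same value, 12.24, on all 3 day 30 arrays, where it held the same rank; at day 3 it stood at 11.23, 11.49 and 11.62. The order of the groups was that of the scanner values for all 3 members in this pair.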
